A study of Macaca mulatta with 24 samples.

Results

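GDF15, the gene for growth differentiation factor 15, was followed in the jejunum of rhesus macaques after total-body irradiation (TBI). All probes that carried the symbol GDF15 in the authors' normalized jejunum table were taken. There was 1 such probe (A_01_P016695, transcript ENSMMUT00000029799) among 43603 on the array. The gene was chosen by its measured rise over control in these same arrays, so its levels and their course over the days are given as a description without a test. The 24 animals were young-adult males. They received sham irradiation or a single uniform dose of 6.7 Gy or 7.4 Gy of cobalt-60 gamma rays. A piece of whole jejunal wall from each animal gave the RNA for 1 array, unpooled. The 4 unirradiated controls, labelled day 4, served both doses. Irradiated animals were sampled on day 4 (4 arrays at each dose), day 7 (4 and 4) and day 12 (2 and 2). The general treatment label names day 21 as the last time, whereas the label of each sample gives day 12, which was used here. No treatment other than the irradiation was named in the labels.

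GDF15 is a secreted, divergent member of the TGF-beta superfamily that is made by many tissues under stress. It acts on the hindbrain through the receptor GFRAL and its co-receptor RET, where it lowers food intake and causes nausea. Its transcription is known to be driven by p53 after DNA damage, by ATF4 and CHOP (gene DDIT3) in the integrated stress response, and by EGR1.

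The signal of a probe is given here as log2 of the background-subtracted intensity minus log2 of the 75th percentile of its array, so that 0 is a signal at the 75th percentile. The GDF15 probe was well above background on all 24 arrays and saturated on none. The arrays lay on 6 slides and were scanned on 2 days. Between 17159 and 38226 probes per array stood clear of background, and the 4 arrays of slide 5 (1 each of 6.7 Gy day 4, 7.4 Gy day 4, 7.4 Gy day 7 and 7.4 Gy day 12) had the fewest, 17159 to 21648. A probe was tested if some group had it well above background throughout, which left 28171 probes (64.6%).

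In the 4 control arrays the GDF15 level was 0.44, -0.49, 0.37 and 0.59, with a mean of 0.23 ± 0.48 (SD, n = 4). On day 4 after 6.7 Gy it was 4.01, 4.47, 4.31 and 4.15 (mean 4.23 ± 0.20, n = 4). On day 4 after 7.4 Gy it was 3.97, 4.44, 3.96 and 3.96 (mean 4.08 ± 0.24, n = 4). Every day 4 array lay above every control array at either dose, and the lowest day 4 array stood 3.42 (6.7 Gy) or 3.37 (7.4 Gy) above the highest control. As raw intensity, the probe read 696 to 1251 units in controls and 13129 to 20562 units on day 4. The day 4 mean exceeded the control mean by 4.00 (SE 0.26), a 16.0-fold difference, at 6.7 Gy, and by 3.86 (SE 0.27), a 14.5-fold difference, at 7.4 Gy. For scale, all day 4 arrays lay above all controls for 6.69% of the 28171 probes at 6.7 Gy and 7.28% at 7.4 Gy. Only 12 probes at 6.7 Gy and 13 at 7.4 Gy had a larger mean difference than GDF15.

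**Figure D1:**
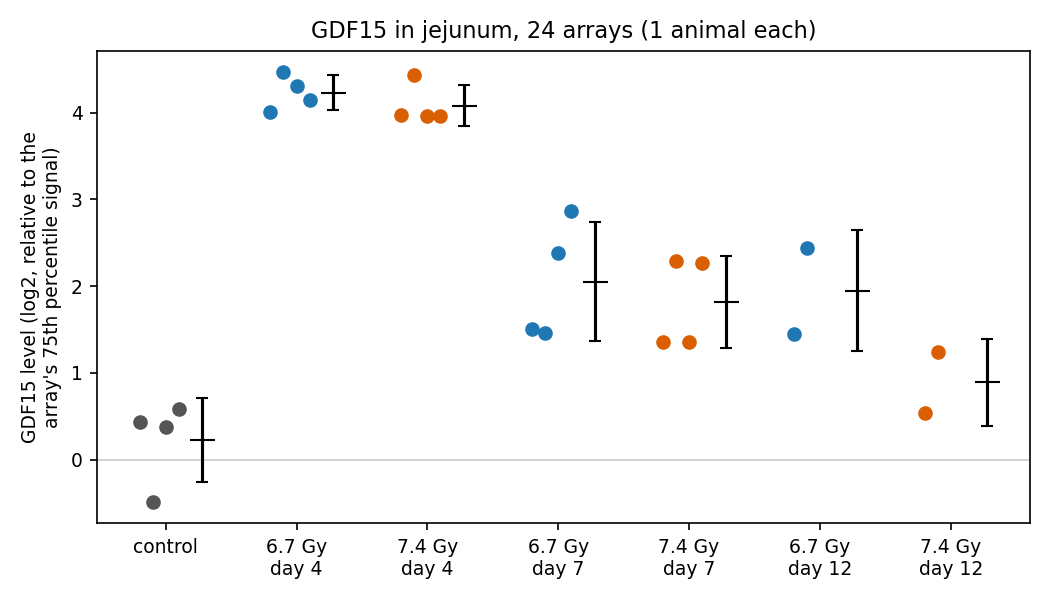
GDF15 level of each of the 24 arrays (vertical axis, log2 over the array's 75th percentile) by group. Points are arrays, the bar beside them is the group mean with its SD. The 8 day 4 arrays sit between 3.96 and 4.47, above every other array, and the 4 controls between -0.49 and 0.59.

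By day 7 the level had come down but had not reached the controls. After 6.7 Gy the day 7 arrays read 1.50, 1.46, 2.38 and 2.87 (mean 2.05 ± 0.69, n = 4). After 7.4 Gy they read 1.36, 2.29, 1.35 and 2.27 (mean 1.82 ± 0.53, n = 4). All of them lay above the highest control, as did all day 7 arrays for 3.99% (6.7 Gy) and 5.87% (7.4 Gy) of probes, and below the lowest day 4 array of their dose, as for 5.45% and 4.12% of probes. The day 7 means were 3.55-fold and 3.01-fold above control and lay 2.18 (SE 0.36) and 2.26 (SE 0.29) below the day 4 means on the log2 scale. Within either dose the 4 animals fell into a lower and a higher pair, and the SD on day 7 was larger than on day 4. Levels on day 12, given next, also lay below every day 4 array of their dose (differences -2.28 and -3.19, as for 12.0% and 12.7% of probes).

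On day 12 the arrays read 1.45 and 2.44 after 6.7 Gy (mean 1.95 ± 0.70, n = 2) and 0.53 and 1.24 after 7.4 Gy (mean 0.89 ± 0.50, n = 2). The 6.7 Gy pair lay above all controls, as for 10.1% of probes, whereas 1 of the 2 arrays of the 7.4 Gy group lay within the control range (8.51% of probes had both above). The day 12 means were 3.29-fold and 1.58-fold above control. The 7.4 Gy difference of 0.66 was 0.31 without replicate 2, 1.02 without replicate 1 and 0.42 without control replicate 2. Expressed against the day 4 rise on the log2 scale, 45.6% remained on day 7 and 43.0% on day 12 after 6.7 Gy, and 41.3% and 17.1% after 7.4 Gy. The 6.7 Gy day 12 arrays overlapped those of day 7 (difference -0.11, with 8.05% of probes wholly below), while the 7.4 Gy day 12 arrays lay below all those of day 7 (difference -0.93), as for 7.82% of probes.

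In ascending order the group means ran control, 7.4 Gy day 12, 7.4 Gy day 7, 6.7 Gy day 12, 6.7 Gy day 7, 7.4 Gy day 4 and 6.7 Gy day 4. Neighbours in that order overlapped for control and 7.4 Gy day 12, for the 7.4 Gy day 7, 6.7 Gy day 12 and 6.7 Gy day 7 groups in turn, and for the 2 doses on day 4. The step from 6.7 Gy day 7 to 7.4 Gy day 4 was 2.03, against a pooled SD of 0.52, with no overlap. The step from 7.4 Gy day 12 to 7.4 Gy day 7 was 0.93, against a pooled SD of 0.53, also with no overlap.

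Because a slide held arrays of several groups, the same differences could be read within slides. Day 4 minus control was 3.87 and 4.63 on the 2 slides that held both groups at 6.7 Gy and 3.60 and 3.85 on the 2 slides at 7.4 Gy. Day 7 minus control ran from 1.07 to 2.28 on 4 slides at 6.7 Gy and was 0.91 and 2.76 on 2 slides at 7.4 Gy. Day 12 minus control at 6.7 Gy was 1.08 and 1.85. No slide held a control beside a 7.4 Gy day 12 array, and all controls were scanned on the first day and all 7.4 Gy day 12 arrays on the second, so scan day and group cannot be told apart there. On each of the 4 slides that held day 7 and day 12 arrays of the same dose, day 12 was the lower (-0.93, -0.43, -0.83 and -1.05), although the 6.7 Gy groups overlapped as a whole. In each of these pairs the day 7 array lay at position 3 and the day 12 array at position 4, so day and position cannot be told apart within them. All controls lay at position 1 of their slide and no day 7 or day 12 array did, so position and group cannot be told apart for those days against control. All day 4 arrays lay at positions 1 and 2 and all later arrays at positions 3 and 4, so the same holds for the falls from day 4 to days 7 and 12. The 7.4 Gy day 4 arrays were all at position 2, and their difference from control with position as a block was 3.87 in a model of all arrays, where the 6.7 Gy day 4 arrays at positions 1 and 2 link the positions.

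The doses could be tested against each other, in a limma model of the 7 groups on all 24 arrays. On day 4 the 7.4 Gy mean minus the 6.7 Gy mean was -0.15 (95% confidence interval -0.83 to 0.53), a 7.4 to 6.7 Gy ratio between 0.563 and 1.45 (limma, adjusted p = 0.9998). It was -0.49 with slide as a block and ran from -0.27 (without 7.4 Gy replicate 2) to -0.07 (without 6.7 Gy replicate 2) with 1 array left out. On day 7 it was -0.24 (-0.92 to 0.45), a ratio between 0.530 and 1.36 (limma, adjusted p = 0.908). On day 12 it was -1.06 (-2.02 to -0.09), a ratio between 0.246 and 0.936, with an unadjusted limma p of 0.033 that did not pass adjustment over the 28171 probes (adjusted p = 0.995). Both 7.4 Gy arrays of day 12 lay below both 6.7 Gy arrays. The day 12 difference ran from -1.55 (without 6.7 Gy replicate 1) to -0.57 (without 6.7 Gy replicate 2), with -1.41 and -0.70 without 7.4 Gy replicates 2 and 1, and was -0.53 with slide as a block. The 6.7 Gy day 12 arrays lay on slides 3 and 4 of the first scan day and the 7.4 Gy ones on slides 5 and 6 of the second, so among the day 12 arrays dose cannot be told apart from slide and scan day, and a block there rests on the other groups. An exact two-sided permutation test gave p = 0.286 on day 4 and p = 0.514 on day 7 (the smallest possible with 4 against 4 is 0.0286) and p = 0.333 on day 12, which is the smallest that 2 against 2 can give. Adjusted over the 3 days these were 0.5, 0.514 and 0.5. The change in the dose difference from day 4 to day 7 was -0.09 (-1.05 to 0.88, limma, adjusted p = 0.9996), and turned to 0.52 with slide as a block and ran from -0.29 to 0.18 with 1 array left out. These intervals do not show that the doses acted alike, and the day 7 difference turned positive (0.029) with slide as a block. Of the 28171 probes, 0% were called in any of the 4 dose comparisons (0 probes by limma at an adjusted p under 0.05 and a 2-fold difference; 671, 1713 and 1386 on days 4, 7 and 12 at an unadjusted p under 0.05). The methods' t-test with Benjamini-Hochberg correction also called 0 on each day.

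p53 drives a DNA damage programme of cell cycle arrest, repair and apoptosis, and GDF15 is among its known targets. Of 35 other p53 targets listed, 28 could be tested. Against control, 10 rose and 0 fell on day 4 after 6.7 Gy, beside 1.41% and 0.869% of the 11857 genes tested. After 7.4 Gy, 9 rose and 1 fell, beside 2.01% and 0.961% of genes. A gene was called here at a limma adjusted p under 0.05 and at least a 2-fold change. The list's median change was 0.61 and 0.59, against -0.04 and -0.06 over all genes. The list was set with earlier results of these samples known and is not independent evidence of a direction.

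EDA2R, a member of the TNF receptor superfamily, changed by nearly as much as GDF15. Its control arrays read -3.02, -2.84, -2.51 and -3.04. Its day 4 arrays read 0.77, 0.98, 1.14 and 0.44 after 6.7 Gy and 1.25, 0.57, 1.19 and 0.87 after 7.4 Gy. No day 4 array overlapped the controls, where 6.69% (6.7 Gy) and 7.28% (7.4 Gy) of probes had all day 4 arrays above all controls. The rise was 3.68 (SE 0.19, adjusted p = 0.00045) and 3.82 (SE 0.20, adjusted p = 0.00035). DDB2, the DNA damage-binding protein that recognises lesions in nucleotide excision repair, read 1.28, 1.21, 1.50 and 1.61 in controls. On day 4 it read 4.35, 4.27, 4.16 and 3.64 after 6.7 Gy and 4.07, 4.35, 3.96 and 4.26 after 7.4 Gy. Every day 4 array again lay above every control, and the rise was 2.71 (SE 0.19) and 2.76 (SE 0.15). A second DDB2 probe rose by 2.65 and 2.75.

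CDKN1A, which encodes the cyclin-dependent kinase inhibitor p21, rose by 1.21 and 1.05, a call lost under 4 and 10 of 21 alternatives. PHLDA3, an inhibitor of AKT signalling, rose by 2.43 and 2.56. ZMAT3, an RNA-binding zinc finger protein, rose by 2.30 and 2.17 from a control level at which 3 of 4 arrays were well above background. The remaining risers were named after their values were seen. They were PLK2, BAX, FAS and TIGAR at both doses, with changes from 1.11 to 2.16, and TNFRSF10A after 6.7 Gy (1.09, against 0.99 after 7.4 Gy). The gene that fell was TRIM22 (-2.28 after 7.4 Gy, -0.44 after 6.7 Gy), an interferon-inducible antiviral factor. MDM2, the ubiquitin ligase that restrains p53, had probes that disagreed. The brighter probe, which stood for the gene, changed by -0.06 and -0.00 and was not called, with values from -0.20 to 0.15 over the alternatives at either dose. The dimmer probe, well above background on 3 of 4 control arrays, rose by 2.03 (limma, adjusted p = 0.0014) and 2.31 (adjusted p = 0.00035).

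The p53 target calls on day 4 numbered 0 to 13 (6.7 Gy) and 0 to 11 (7.4 Gy) over 22 alternatives. They were lost at both doses with slide as a block in fits of 2 groups, which leave 1 residual degree of freedom. In 1 model of all 24 arrays with slide as a block, added after seeing the data, 9 rose and 1 fell at 6.7 Gy and 10 rose and 1 fell at 7.4 Gy.

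**Figure D2:**
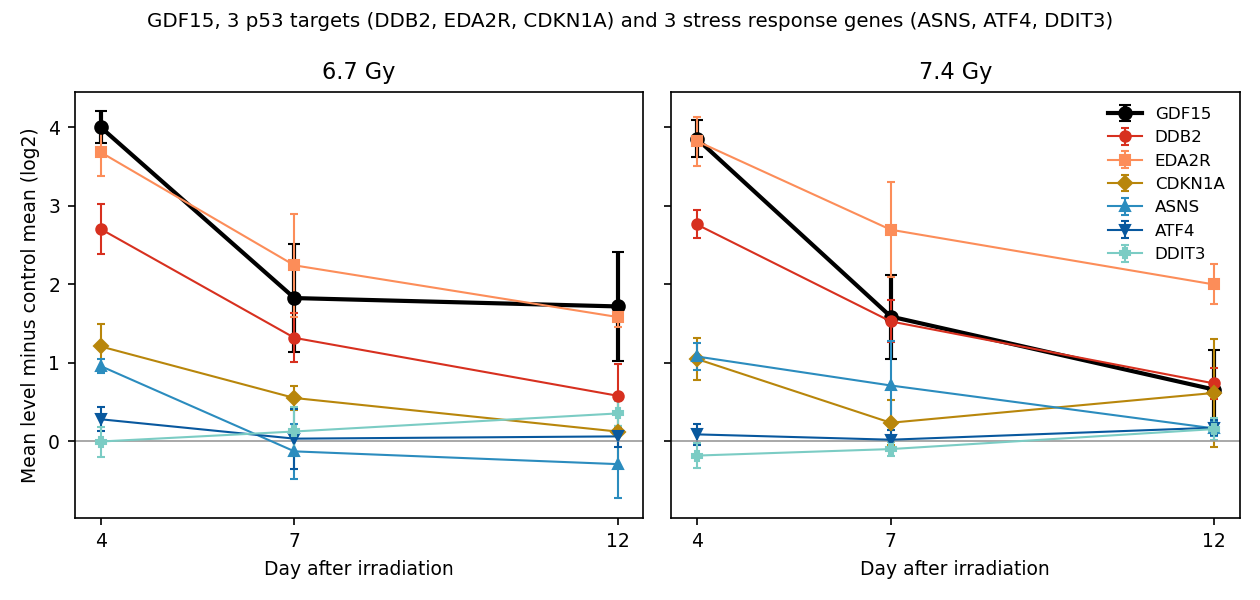
Mean level minus control mean (vertical axis, log2) for 6.7 Gy (left) and 7.4 Gy (right) against the day after irradiation, with the SD of the arrays of the group as bars. GDF15 (black), EDA2R, DDB2, CDKN1A and ASNS are drawn with ATF4 and DDIT3. GDF15, EDA2R and DDB2 were highest on day 4 (GDF15 4.00 and 3.86), while ATF4 and DDIT3 stayed within 0.36 of control.

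On day 7, 0 of the 28 p53 targets were called by limma after 6.7 Gy, beside 0.0253% of genes up and 0.0253% down. At an unadjusted p under 0.05 there were 12, and the methods' t-test called 0. After 7.4 Gy, EDA2R (2.70, adjusted p = 0.014) and DDB2 (1.53, adjusted p = 0.020) were called up, beside 0.135% of genes up and 0.169% down, and the methods' t-test called 0. Both calls were lost with slide, scan day or replicate number as a block and with no filter on dim probes. The EDA2R change after 6.7 Gy was of like size (2.24) but had an adjusted p of 0.053. On day 12, 0 were called at either dose by limma (8 and 3 at an unadjusted p under 0.05, and 0 by the methods' t-test), beside 0.0169% of genes up and 0% down after 6.7 Gy and 0% in either direction after 7.4 Gy. DDB2 then stood 0.58 and 0.74 above control and EDA2R 1.58 and 2.00. The 6 comparisons with control share the same 4 control arrays.

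The integrated stress response is the other classical route to GDF15: kinases phosphorylate the translation factor eIF2alpha, and translation of ATF4 and then transcription of CHOP and their targets follow. Of 33 genes of this response listed, 26 could be tested on day 4. VLDLR, a lipoprotein receptor, was the only one called after 6.7 Gy (1.00, adjusted p = 0.041), beside 1.41% of all genes called up. After 7.4 Gy, VLDLR (1.04) and NUPR1, a stress-induced chromatin regulator (1.03, against 0.84 and not called after 6.7 Gy), were called, beside 2.01% of all genes. None fell, and 9 genes of the list at each dose had an unadjusted p under 0.05. The median change of the list was 0.00 and -0.04. The VLDLR call after 6.7 Gy was lost under 18 of 20 alternatives, and the 7.4 Gy calls of VLDLR and NUPR1 under 9 of 20 and 9 of 21. In all, 0 to 2 (6.7 Gy) and 0 to 3 (7.4 Gy) genes of the list were called over 22 alternatives.

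ATF4, the transcription factor at the centre of this response, read 5.63, 5.34, 5.66 and 5.68 in controls. On day 4 it read 5.85, 6.04, 5.88 and 5.66 after 6.7 Gy and 5.66, 5.69, 5.82 and 5.50 after 7.4 Gy. The groups overlapped at either dose, with changes of 0.28 (adjusted p = 0.299) and 0.09 (adjusted p = 0.740). DDIT3 read 0.15, 0.49, 0.56 and 0.56 in controls, 0.70, 0.41, 0.24 and 0.41 after 6.7 Gy and 0.22, 0.32, 0.44 and 0.06 after 7.4 Gy. These arrays overlapped too (changes -0.00 and -0.18, adjusted p = 0.998 and 0.507). ATF3, a stress-induced transcription factor of the same family, changed by -0.14 and 0.06 on its brightest probe, and none of its tested probes was called. Over the 21 alternatives run for these single genes at each dose, ATF4, DDIT3 and ATF3 were called in 0. The transcript level does not measure translation of ATF4, which is the step this response regulates.

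ASNS, the asparagine synthetase gene that ATF4 activates on amino acid shortage, came closest to a call among the named genes of the list that were not called at either dose. It read 0.70, -0.42, 0.27 and 1.03 in controls, 1.27, 1.28, 1.42 and 1.44 after 6.7 Gy and 1.72, 1.32, 1.40 and 1.46 after 7.4 Gy. All day 4 arrays lay above all controls, as for 6.69% (6.7 Gy) and 7.28% (7.4 Gy) of probes. The difference in means was 0.96 (limma, adjusted p = 0.096) and 1.08 (adjusted p = 0.064). It was called in 1 of 21 alternatives at 6.7 Gy and in 4 of 21 at 7.4 Gy. TRIB3, a pseudokinase induced by CHOP, missed the detection filter in every group and was not tested.

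Neighbouring stress programmes showed few calls on day 4, when 1.41% and 2.01% of all genes were called up and 0.869% and 0.961% down. Of 7 eIF2alpha kinase and phosphatase genes, 14 genes of the unfolded protein response and 9 genes of mitochondrial stress, 0 were called by limma at either dose. At an unadjusted p under 0.05 the counts were 1, 1 and 0 at each dose, and the methods' t-test called 0. Their medians lay between -0.20 and -0.05. Of 13 NRF2 and oxidative stress targets, HMOX1, the haem-degrading enzyme heme oxygenase 1, was called at both doses, and it fell (-1.19 and -1.33), a call lost under 14 and 5 of 21 alternatives.

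Of 12 immediate early and stress transcription factors tested, 3 rose at each dose, beside 1.41% and 2.01% of all genes. EGR1, a growth factor-induced transcription factor known to act on the GDF15 promoter, rose by 2.31 (SE 0.25) and 1.86 (SE 0.19). It was dim. It read -5.10, -5.10, -5.41 and -5.60 in controls, -3.64, -3.12, -2.55 and -2.66 after 6.7 Gy and -3.42, -3.40, -3.82 and -3.12 after 7.4 Gy, with 3 of 4 arrays well above background in each of these groups. Its relative EGR2 rose by 2.46 and 2.59 at similarly dim levels, and IER3, a radiation-inducible survival gene, by 1.75 and 1.81. IER3 was the only riser above background on all control and day 4 arrays. The EGR1 call was lost under 3 and 4 of 20 alternatives and the EGR2 call under 7 and 2 of 20. Apart from leaving out arrays, the smallest changes were 1.17 and 0.95 for EGR1 and 1.32 and 1.09 for EGR2.

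**Figure D3:**
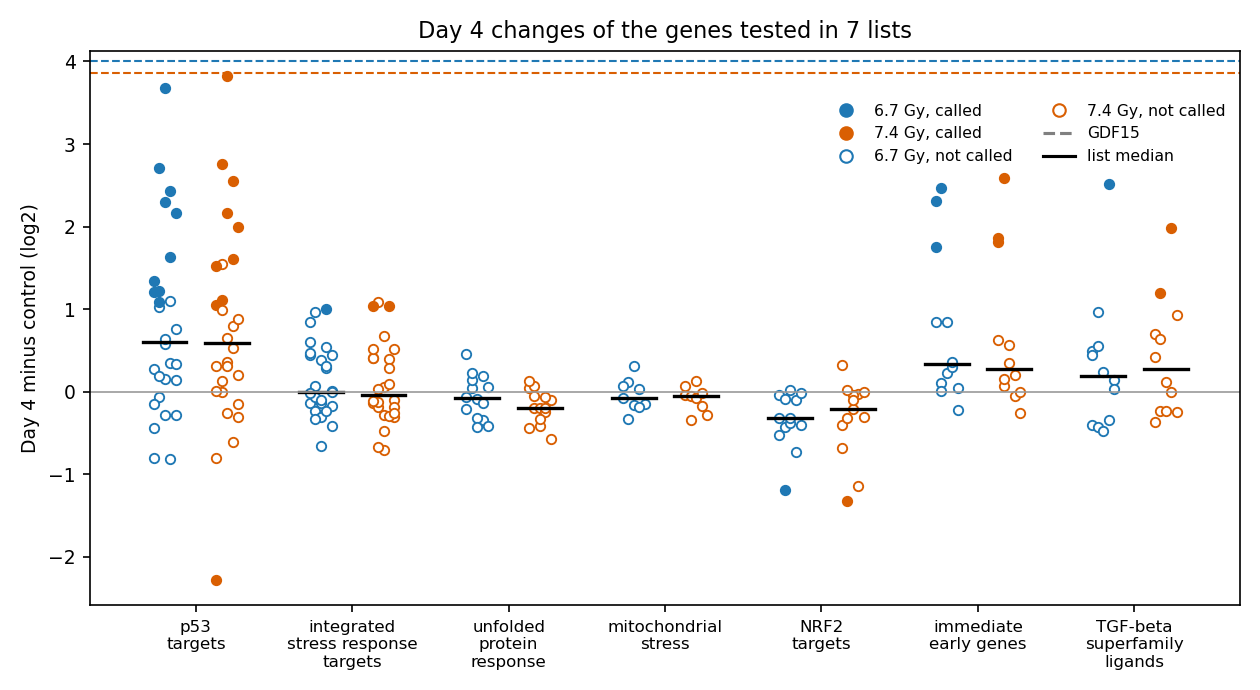
Day 4 minus control (vertical axis, log2) of each tested gene in 7 lists, after 6.7 Gy (blue) and 7.4 Gy (orange). Filled points passed the call, black bars are list medians and dashed lines are GDF15. Points of the p53 targets reach 3.68 and 3.82 with medians of 0.61 and 0.59, and the integrated stress response targets have medians of 0.00 and -0.04.

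Among the other ligands of the TGF-beta superfamily, 12 of 32 were bright enough to be tested. BMP7, a bone morphogenetic protein, rose by 2.52 (adjusted p = 0.0014) and 1.99 (adjusted p = 0.017), and TGFB3 rose after 7.4 Gy (1.20; 0.96 and not called after 6.7 Gy), beside 1.41% and 2.01% of all genes. Both were dim in controls, with 3 of 4 arrays well above background, and 0 of the 6 ligands above background on all control and day 4 arrays were called at either dose (by limma; the unadjusted count was 7 and 5 over all 12). The 7.4 Gy calls were lost under 9 (BMP7) and 6 (TGFB3) of 20 alternatives, and with slide as a block in 1 model of all arrays neither was called after 7.4 Gy. GDF15 was chosen for its rise in these arrays, so its difference from control is not ranked against theirs. None of the 12 fell.

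GFRAL and RET, through which GDF15 acts in the brain, missed the detection filter in every group here and were not tested. FURIN, a protease that trims proproteins of this superfamily, changed by 0.01 and -0.26 and MMP14, a membrane metalloproteinase, by -0.13 and -0.09 on day 4. Neither was called by limma (0 of 2 genes at an unadjusted p under 0.05, and 0 by the methods' t-test).

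Gut hormones, some of which act on appetite as GDF15 does, were listed as well. Of 13 enteroendocrine hormone genes tested on day 4, 0 rose, 2 fell after 6.7 Gy and 4 fell after 7.4 Gy, beside 0.869% and 0.961% of all genes called down. At each dose 6 of the 13 had a positive change. GIP, an incretin of the upper small intestine, fell by 2.21 and 2.78. PYY, a satiety hormone, fell by 1.37 and 1.54, and was well above background on 3 and 2 of 4 arrays. MLN, the gene for motilin, and GHRL, the gene for the hunger hormone ghrelin, were called after 7.4 Gy (-2.94 and -2.61) and not after 6.7 Gy (-2.37 and -2.66, adjusted p = 0.079 and 0.060). A second GHRL probe was not called at either dose (-1.86 and -1.48, adjusted p = 0.074 and 0.062). On day 4 GHRL was well above background on 2 and 3 of 4 arrays and MLN on 4 and 3. GCG, the proglucagon gene, was not called (0.29 and 0.07). The PYY call was lost under 15 and 14 of 20 alternatives, and the calls after 7.4 Gy of MLN under 14 of 20 and of GHRL under 2 of 20. After 6.7 Gy, GHRL was called under 5 of 20 alternatives and MLN under 1 of 20. The median of this list was -0.16 and -0.01. Fewer cells of a type and less RNA per cell cannot be told apart in such bulk tissue. Of 12 other circulating stress and injury factors tested, TIMP1, an inhibitor of matrix metalloproteinases, was the only one called, beside 1.41% and 2.01% of all genes called up, and it rose by 1.31 and 1.38, a call lost under 13 and 12 of 21 alternatives. FGF21, a stress hormone that shares ATF4 as a known driver with GDF15, was not called (-0.06 and -0.12, named after its values were seen).

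On day 7, 0 and 2 of the 147 tested genes in these lists (6.7 and 7.4 Gy) were called by limma, and on day 12, 0 and 0. Over all genes the shares called up and down were 0.0253% and 0.0253% (6.7 Gy) and 0.135% and 0.169% (7.4 Gy) on day 7, and 0.0169% and 0% (6.7 Gy) and 0% and 0% (7.4 Gy) on day 12. At an unadjusted p under 0.05 the counts were 38 and 45 on day 7 and 20 and 21 on day 12, and the methods' t-test called 0 each time.

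The genes whose level followed that of GDF15 most closely were sought among 6821 named genes well above background on every array. The measure was Pearson's r over the 24 arrays. The day 4 arrays stand apart from all others in GDF15, so r is a description of how alike the courses were, and it was also taken after subtracting each group's mean. DDB2 was the most alike (r = 0.94, within groups 0.62), followed by ALDH1A2, which makes retinoic acid (0.92, within groups 0.65). No other gene passed 0.9, where 5% of genes lay above 0.65. The next 8 were DCP1B, APOBEC3H, SULF2, VCAM1, SLC12A4, EDA2R, ARHGEF3 and HMGN3, with r between 0.88 and 0.89 and within-group values from 0.17 to 0.57. Without the 2 arrays farthest from the median GDF15 level (control 2 and 6.7 Gy day 4 replicate 2), r was 0.93 for DDB2 and 0.91 for ALDH1A2.

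ALDH1A2 read -1.66, -1.36, -1.88 and -0.96 in controls, 0.62, 0.98, 1.46 and 0.61 on day 4 after 6.7 Gy and 0.80, 0.94, 0.98 and 0.35 after 7.4 Gy. Its day 4 means stood 2.38 and 2.23 above control, and its day 7 means 0.87 and 1.26. On day 12 they were still 1.15 and 1.04 above control.

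The 5 genes most opposite to GDF15 were CYB5A (r = -0.89), PCK2 (-0.88), C16H17orf78 (-0.86), RBP2 (-0.86) and MGST2 (-0.85). Among these 5, RBP2, the retinol-binding protein of absorptive enterocytes, kept the strongest relation within groups (-0.74). Within-group values were not set against those of all genes. It read 7.54, 7.84, 7.56 and 7.56 in controls and 5.85 to 6.50 in the 8 day 4 arrays. On day 7 after 6.7 Gy the arrays with GDF15 at 1.50, 1.46, 2.38 and 2.87 read 7.74, 7.56, 7.04 and 6.41 for RBP2. After 7.4 Gy those with GDF15 at 1.36, 2.29, 1.35 and 2.27 read 7.15, 6.99, 7.51 and 6.31. In either group the pair of animals with more GDF15 was the pair with less RBP2. RBP2 was picked for its opposite course on these same arrays, so this match is a description only.

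**Figure D4:**
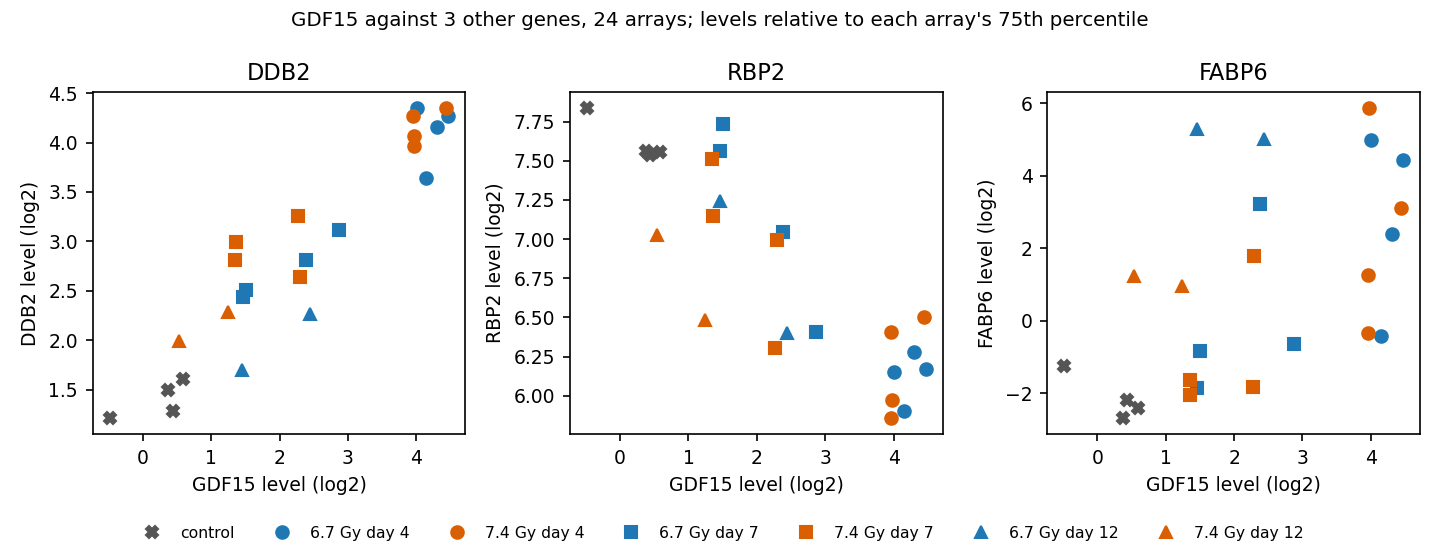
Level of DDB2, RBP2 and FABP6 (vertical axes, log2 over the array's 75th percentile) against that of GDF15 (horizontal axis, the same scale) on the 24 arrays, coloured by dose and shaped by day. DDB2 rises with GDF15 (r = 0.94) and RBP2 falls (r = -0.86), whereas FABP6 is high on day 12 after 6.7 Gy at GDF15 levels of 1.45 and 2.44.

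Markers of several cell types were measured in the same RNA. Of 10 absorptive enterocyte markers tested, 3 fell on day 4 after 6.7 Gy (FABP1, VIL1 and RBP2) and 2 after 7.4 Gy (FABP1 and RBP2), beside 0.869% and 0.961% of all genes, while 3 and 2 of the 10 had a positive change. Their summed signal, which is weighted to the brightest probes, was 427 to 509 and 403 to 579 times the 75th percentile against 698 to 868 in controls. On day 7 the sum was 436 to 748 and 334 to 606, and on day 12 it was 594 to 690 and 533 to 592, below all controls. Of 7 fibroblast markers, 0 were called after 6.7 Gy (3 at an unadjusted p under 0.05) and 4 collagen and matrix genes rose after 7.4 Gy, beside 1.41% and 2.01% of all genes. Their summed signal was 92.4 to 110 and 119 to 197, against 53.1 to 84.8 in controls. The macrophage markers, a cell type that can make GDF15, summed to 64.5 to 109 and 88.8 to 103 against 57.1 to 67.9 in controls. The 6.7 Gy sums overlapped those of controls, and 0 of 9 were called by limma, beside 1.41% of all genes called up. CD14 was the 1 of 9 called after 7.4 Gy (1.25), beside 2.01% of all genes. At an unadjusted limma p under 0.05 there were 4 and 6, and the methods' t-test called 0 at either dose. Macrophage sums on day 7 were 48.9 to 63.4 and 48.8 to 70.2, and on day 12 77.0 to 90.6 and 71.7 to 72.6. The T and B cell markers summed to at most 34.3 (6.7 Gy) and 32.1 (7.4 Gy) on day 4, wholly below the 36.6 to 51.3 of controls. Of the 10 tested, however, 5 and 6 had a positive change on day 4, with list medians of 0.08 and 0.13. At each dose 1 of 10 was called, and fell, beside 0.869% and 0.961% of all genes. Their sums on day 7 (20.8 to 34.6 and 19.1 to 29.3) and day 12 (26.3 to 30.2 and 29.6 to 29.8) also lay below controls. Of 5 neutrophil markers on the array, 0 stood clear of background on all 24 arrays. The part of these shifts in the GDF15 values was not tested.

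Markers of other gut segments were checked as a check of the labelled tissue. FABP6, an ileal bile acid-binding protein, read -2.19, -1.25, -2.70 and -2.40 in controls. On day 4 it read 4.97, 4.44, 2.38 and -0.44 after 6.7 Gy and 5.88, 3.12, -0.34 and 1.26 after 7.4 Gy. It was 4.97 higher than control after 6.7 Gy (adjusted p = 0.038) and 4.61 higher after 7.4 Gy (adjusted p = 0.051). Of 6 segment markers tested, FABP6 and SLC10A2, an ileal bile acid transporter (1.73), were called up after 6.7 Gy and GUCA2A, the gene for guanylin (1.36), after 7.4 Gy, beside 1.41% and 2.01% of all genes. The list's median change was 1.34 and 1.25. These genes were named after their values were seen. On day 12 after 6.7 Gy FABP6 read 5.29 and 5.00, 7.28 above control (limma, adjusted p = 0.0040). After 7.4 Gy it read 1.22 and 0.95, 3.22 above control and not called (adjusted p = 0.151) but above all controls, as for 8.51% of probes. On the 2 day 4 arrays with the least FABP6 (-0.44 and -0.34, still above the highest control at -1.25), GDF15 read 4.15 and 3.96. The summed signal of the 7 segment markers on the array was 50.2 to 121 and 61.9 to 150 on day 4, against 56.5 to 81.3 in controls. On day 12 it was 133 to 134 after 6.7 Gy, wholly above control, and 63.0 to 84.3 after 7.4 Gy. Whether all pieces came from the same level of the intestine, and the part of these markers in the GDF15 values, was not tested.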

How the data were processed

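One-color Agilent rhesus macaque arrays held Cy3-labelled jejunal RNA, 24 arrays in 7 groups taken from the sample labels. Per the file headers, the deposited intensity values came from Feature Extraction 11.0.1.1 after its background subtraction. The authors also deposited a log2 table normalized to the 75th percentile and centred on the median of each probe, which matched levels centred likewise within 0.002 for 99.9% of values. The median spot signal replaced the mean signal, which was not used here, in the normexp alternative. Spots of a probe were averaged without control spots.

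Levels were log2 signal minus the log2 75th percentile of the array. Irradiated groups were compared with control in limma 3.58.1 (R 4.3.3), with Benjamini-Hochberg adjustment over 28171 probes. The probe with the highest mean stood for a gene. Doses were compared in 1 model of all arrays. The fits were tested on simulated data. Symbols of 3184 probes and names of 121 probes were updated or added through a RefSeq gene table.

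Named genes were 16 set genes, up to 4 called genes per list, and the 10 most and 5 least alike genes. The result of 1 set gene is not reported here. Members and lists were chosen with earlier results of these data known. Replicates were separate animals. The number of arrays limits precision. Alternatives covered background correction, scaling, filters, blocks and left-out arrays.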

Additional observations from a re-analysis of the deposited data

Results flagged for a closer look

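Of 40 groups of 4 arrays checked for GDF15 and 7 probes shown beside it, 5 held an array far from the other 3. Chance alone marks about 1 group in 20. GDF15 itself was marked on day 4 after 7.4 Gy, where replicate 2 read 4.44 and the others 3.96 to 3.97. ATF4 was low in 1 control (5.34, others 5.63 to 5.68) and high in 1 array on day 7 after 6.7 Gy (6.19, others 5.39 to 5.44). CDKN1A was low in 1 array on day 4 after 6.7 Gy (3.98, others 4.50 to 4.57). EDA2R was low in 1 array on day 7 after 6.7 Gy (-1.59, others -0.38 to -0.18).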

How the results depend on the processing

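GDF15 stayed above control in every irradiated group under every alternative run, and day 4 stayed the highest day. Of 167 values of its level differences, 161 moved by less than the spread between arrays (pooled SD). Where 4 arrays are compared with 4, leaving 1 out cannot move the difference that far. The count is therefore no test of how firm the differences are. The fall from day 4 to day 7 after 6.7 Gy was -2.74 with slide as a block, and the fall to day 12 was -2.89 with slide as a block in 1 model of all arrays, an alternative chosen after seeing the data, as was leaving out slide 5. With 1 array left out in turn, the fall from day 4 to day 12 ran from -2.78 to -1.79 (6.7 Gy) and from -3.55 to -2.84 (7.4 Gy). The dose difference on day 7 turned to 0.029 with slide as a block and ran from -0.43 to 0.036 with 1 array left out. Its change from day 4 to day 7 was 0.52 with slide as a block, 0.10 without slide 5, and -0.29 to 0.18 with 1 array left out. None of these passed a threshold in the main setting, and the cause of each reversal was not tested.

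Counts of called list genes moved more. On day 4 after 6.7 Gy (19 genes, 10 of them p53 targets) they were 0 and 0 with slide as a block, 7 and 5 with a replicate block, 8 and 6 with no filter on dim probes, and 9 and 6 over probes above background on all arrays. The whole count was 12 with scan day as a block and 10 by the methods' t-test. After 7.4 Gy (23 genes, 10 of them p53 targets) the counts were 0 and 0 with slide, 13 and 6 with scan day, 9 and 5 with no filter, 12 and 6 over probes above background on all arrays, and 4 and 3 with position as a block. The whole count was 14 with a replicate block. With 1 array left out they ran from 13 to 17 and from 17 to 23. On day 7 after 6.7 Gy (0 genes) the count was 1 with normexp, 1 with the percentile over detected probes, 1 with quantile normalization, 3 over probes above background on all arrays, 3 in 1 model of all arrays, 4 with slide added to that model, and 0 to 1 with 1 array left out. On day 7 after 7.4 Gy (2 genes) it was 0 with slide, scan day or replicate block, 0 with no filter, 0 by the methods' t-test, 5 over probes above background on all arrays, 1 without slide 5, 9 in 1 model, 6 with slide added to it, and 0 to 6 with 1 array left out. On day 12 after 7.4 Gy (0 genes) it was 1 over probes above background on all arrays and 0 to 5 with 1 array left out. The cause was not tested. The filters change how many probes are adjusted over, and blocks use up residual degrees of freedom.

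Replicates were separate animals, so their numbers do not pair animals across groups. Deviations of same-numbered arrays correlated from -0.17 to 0.33 (median 0.02, 62 pairs). Those of other pairs correlated from -0.41 to 0.41 (median -0.02, 182 pairs). A correlation over 0.1 was found in 15 of the 62 and 26 of the 182. Of 24 arrays, 10 correlated best with an array of their own number, and the number expected by chance was not computed. With a replicate block the GDF15 differences from control were 4.00, 3.86, 1.83, 1.59, 1.97 and 0.91. Arrays of the same slide but different groups deviated together more (median 0.14, 36 pairs, against -0.02 for other pairs), and the main model has no slide term. The dose difference on day 12 ran from -1.55 to -0.57 with 1 array left out and was -0.53 with slide as a block. The dim genes are limited by signal over background, most of all on slide 5. The alternative of other GDF15 probes was not run because there is 1 probe.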
